A study of Rattus norvegicus with 16 samples.

Results

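Matrix glycoproteins, proteoglycans and laminins of the neonatal rat heart are described here through 40 genes, each named by its symbol. The list was chosen with earlier results of these data known. A gene counted as measured where the array's platform annotation tied a probe set to its symbol alone, and its brightest such probe set was taken. That left 29 of the 40 genes, out of 14324 genes named in this way and 27342 probe sets in all. Each of the 29 genes had exactly 1 probe set, so the choice by brightness was never needed. The other 11 genes (Fbn2, Spp1, Thbs1, Thbs2, Thbs4, Tnc, Lama2, Lama4, Lamb1, Nid1 and Hspg2) had no such probe set and are not analysed here. No filter on low values was applied to the 29.

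RNA was measured in hearts of 2-day-old rats on Affymetrix Rat Gene 1.0 ST arrays, 1 array per animal, in 4 groups of 4: females and males of the Hypertrophic Heart Rat (HHR) and females and males of the Normal Heart Rat (NHR). HHR is a strain with polygenic cardiac hypertrophy and NHR is its strain with hearts of normal size, and no animal was treated. The labels describe dissected ventricles in one place and the whole heart in another, with litters and batches not given in the sources used here. Each strain is a single model, so any difference is one between these 2 strains and their litters, which cannot be told apart.

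Outside heart muscle cells, the tissue is held together by an extracellular matrix that fibroblasts, smooth muscle cells and endothelial cells secrete. In the interstitium, fibronectin and small leucine-rich proteoglycans organise collagen, while elastin is laid down on a scaffold of fibrillin microfibrils and fibulins and is then cross-linked by lysyl oxidases. Basement membranes, which wrap each muscle cell and underlie each vessel, are built from laminins (trimers of an alpha, a beta and a gamma chain) joined to nidogen and perlecan. After birth the heart's matrix is built up quickly as pressure in the left ventricle rises.

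All values are log2 expression levels after RMA, which sets the arrays on a common scale, so that a difference of 1 is a doubling. Array medians ran from 7.19 to 7.28, and no 2 arrays correlated below 0.990 across probe sets. Markers of heart muscle were bright, Myh6 (the fast myosin heavy chain) at 13.46 and Tnnt2 (cardiac troponin T) at 13.76 on average, above 99.6% and 99.8% of probe sets. On the first principal component of deviations from the group means, which held 26.7% of that variance, the NHR arrays lay at both ends. Females 3 and 4 and male 4 scored 14.4 to 22.6, females 1 and 2 and males 1 and 2 scored -16.9 to -11.1, and male 3 lay between them at 1.74. The first set is called the 3 NHR arrays apart below and the second the 4 NHR arrays at the other end. Calls of the matrix genes that change when either set is left out are given beside them.

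For 3 genes whose level differed between the strains, RefSeq gives a start site at the outer edge of the gene, and the 250 bases before that start are shown so that the sequence ahead of them can be read beside the values that follow. They were read from RefSeq's assembly GRCr8, 5′ to 3′ on the gene's own strand: Dpt at chr13:79656091-79656340 (+ strand), Vcan at chr2:22595956-22596205 (- strand) and Lama5 at chr3:187695975-187696224 (- strand). Capitals mark matches, on either strand, to any of 4 motifs. The first is TATAAA, the core promoter element that places the start of many tissue-specific genes. The next is GGGCGG, which Sp-family factors bind in promoters that are rich in these letters. Another is CCAAT, the element that the NF-Y complex binds in many promoters. The last is CAGAC, a short element of the Smad factors that act downstream of TGF-beta.
Dpt: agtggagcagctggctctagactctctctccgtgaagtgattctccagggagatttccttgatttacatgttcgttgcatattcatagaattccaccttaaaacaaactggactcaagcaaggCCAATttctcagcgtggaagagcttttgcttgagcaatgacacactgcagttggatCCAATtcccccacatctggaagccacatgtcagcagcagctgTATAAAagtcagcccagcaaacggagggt
Vcan: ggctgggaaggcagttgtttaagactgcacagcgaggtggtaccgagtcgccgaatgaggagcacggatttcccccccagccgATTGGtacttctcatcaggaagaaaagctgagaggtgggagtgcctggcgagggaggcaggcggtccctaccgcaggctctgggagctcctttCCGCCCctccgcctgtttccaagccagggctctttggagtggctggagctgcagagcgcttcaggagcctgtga
Lama5: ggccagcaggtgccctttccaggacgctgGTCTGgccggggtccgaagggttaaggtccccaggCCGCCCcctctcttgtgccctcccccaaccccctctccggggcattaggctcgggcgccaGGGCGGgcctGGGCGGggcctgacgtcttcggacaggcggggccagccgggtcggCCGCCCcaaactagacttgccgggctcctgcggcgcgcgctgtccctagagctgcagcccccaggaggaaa
Dpt, which rose in HHR, had 1 TATAAA and 2 CCAAT matches and a GC content of 47.2%. Vcan, which also rose, had 1 GGGCGG and 1 CCAAT match with 61.6% GC. Lama5, which fell, had 4 GGGCGG matches and 1 CAGAC match with 72.8% GC. Promoters of 17 of the 29 genes were in the RefSeq table. Among these, TATAAA was found in 3 genes, GGGCGG in 8, CCAAT in 7 and CAGAC in 12. Of the 33469 promoter windows of this length in the RefSeq table, 12.9% held TATAAA, 30.5% GGGCGG, 34% CCAAT and 42.9% CAGAC. None of the 4 motifs contains another on either strand. Such matches describe the letters in these windows and nothing more.

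The comparison of HHR with NHR asked which matrix genes differ between a heart that will be large and one of normal size, averaged over the sexes. Of the 29 genes, 9 rose in HHR (Mfap4, Mfap2, Fbln2, Dpt, Pdgfra, Vcan, Loxl2, Bgn and Lox), 3 fell (Lama5, Lamb2 and Emilin1) and 17 did not pass limma's test at an adjusted p of 0.05. Over all probe sets 20.7% passed, 9.64% higher and 11% lower, against 41.4% of the matrix genes, 31% higher and 10.3% lower. The gap depends on the probe sets used for comparison. With dim probe sets filtered out 33.5% passed, and 9 of the 28 matrix genes kept were higher and 3 lower. Among probe sets with a single symbol 25% passed, with 9 of 29 higher and 3 lower. Counts of gene groups and lists below are to be read beside these shares. The median difference of the 29 genes was 0.07 and that of all probe sets was -0.03, and their median sizes regardless of direction were 0.19 and 0.08. The differences ran from -0.35 to 0.44, so every one was well under a doubling. Fewer cells of a type and less RNA per cell cannot be told apart in such tissue samples, and a sequence variant under a probe can also move its signal.

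**Figure D1:**
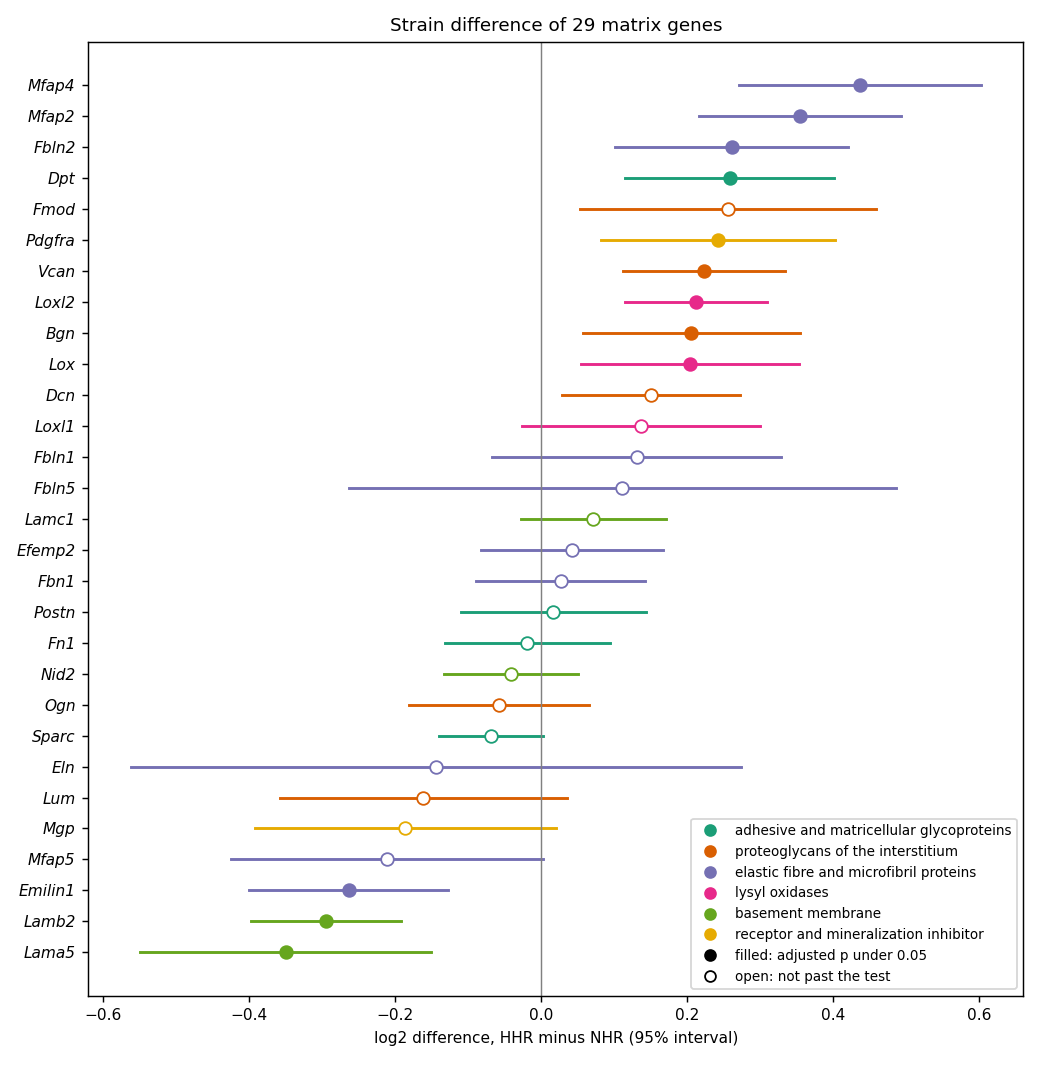
Log2 difference of HHR minus NHR (horizontal axis) for each of the 29 measured matrix genes (vertical axis), with 95% intervals, coloured by role and filled where the adjusted p was under 0.05. Mfap4 lies highest at 0.44 and Lama5 lowest at -0.35, and the widest intervals belong to Eln (-0.56 to 0.28) and Fbln5 (-0.26 to 0.49).

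Genes of the elastic fibre and its microfibrils showed the largest rises. Of 10 measured genes 3 rose and 1 fell. Mfap4, a glycoprotein that binds elastin and microfibrils, ran from 12.31 to 12.62 in the 8 HHR arrays (median 12.43) and from 11.67 to 12.21 in the 8 NHR arrays (median 12.11). The lowest HHR array was thus above the highest NHR array. The means were 12.44 ± 0.10 (SD, n = 8) and 12.00 ± 0.20, so that HHR was higher by 0.44 on the log2 scale, or 1.35-fold (SE 0.08, limma adjusted p = 0.000952). Among the NHR animals the values of females 3 and 4 (11.84 and 11.79) and of male 4 (11.67) were the lowest. Without those 3 arrays Mfap4 differed by 0.29 (limma adjusted p = 0.00311).

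Mfap2, which encodes MAGP-1, a small glycoprotein on fibrillin microfibrils, rose by 0.35 (SE 0.07, limma adjusted p = 0.00117). Its HHR arrays spanned 10.22 to 10.64 (median 10.46) and its NHR arrays 9.92 to 10.23 (median 10.11). The groups met at one point, where HHR female 1 (10.22) and NHR female 1 (10.23) had almost the same level, and the other 7 HHR arrays lay above all NHR arrays. Fbln2, a fibulin that bridges microfibrils and basement membranes, rose by 0.26 (SE 0.08, limma adjusted p = 0.0212). It ran from 9.00 to 9.58 in HHR (median 9.26) and from 8.83 to 9.22 in NHR (median 8.99), with 5 of 8 HHR arrays above the NHR range. With the 3 NHR arrays apart left out, the difference was 0.26 and did not pass (limma adjusted p = 0.0836), nor did it pass without the 4 at the other end (0.24, limma adjusted p = 0.0654).

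Emilin1, an elastin-associated glycoprotein of vessel walls, went the other way. Its HHR arrays lay between 8.39 and 8.97 (median 8.71) and its NHR arrays between 8.76 and 9.07 (median 8.97), with 6 of 8 HHR arrays below the NHR range. It fell by 0.26 (SE 0.06, limma adjusted p = 0.00773), a call that was lost without the 3 NHR arrays apart (-0.22, limma adjusted p = 0.0626). Mfap5, which encodes MAGP-2, the partner of Mfap2 on the microfibril, differed by -0.21 (SE 0.10, limma adjusted p = 0.156), by -0.04 without those arrays and by -0.41 without the 4 at the other end (limma adjusted p = 0.00837).

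The structural core of the fibre gave no call. Fbn1, fibrillin 1, had medians of 10.86 in HHR and 10.82 in NHR and differed by 0.03 (95% interval -0.09 to 0.14). Efemp2, which encodes fibulin 4 and helps lysyl oxidase reach elastin, differed by 0.04 (interval -0.08 to 0.17), and Fbln1 by 0.13 (interval -0.07 to 0.33). Without the 4 NHR arrays at the other end Fbln1 passed (0.28, limma adjusted p = 0.0472). Eln, elastin itself, had a mean of 9.87 in HHR (SD 0.51, n = 8) and of 10.02 in NHR (SD 0.37), a difference of -0.14 with an interval from -0.56 to 0.28. Fbln5, fibulin 5, which tethers elastin to cells, differed by 0.11 (interval -0.26 to 0.49). For these last 2 genes the spread between animals was wider than the strain difference, and the interval of Fbln5 still includes a rise as large as that of Mfap4, that of Eln a fall as large.

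**Figure D2:**
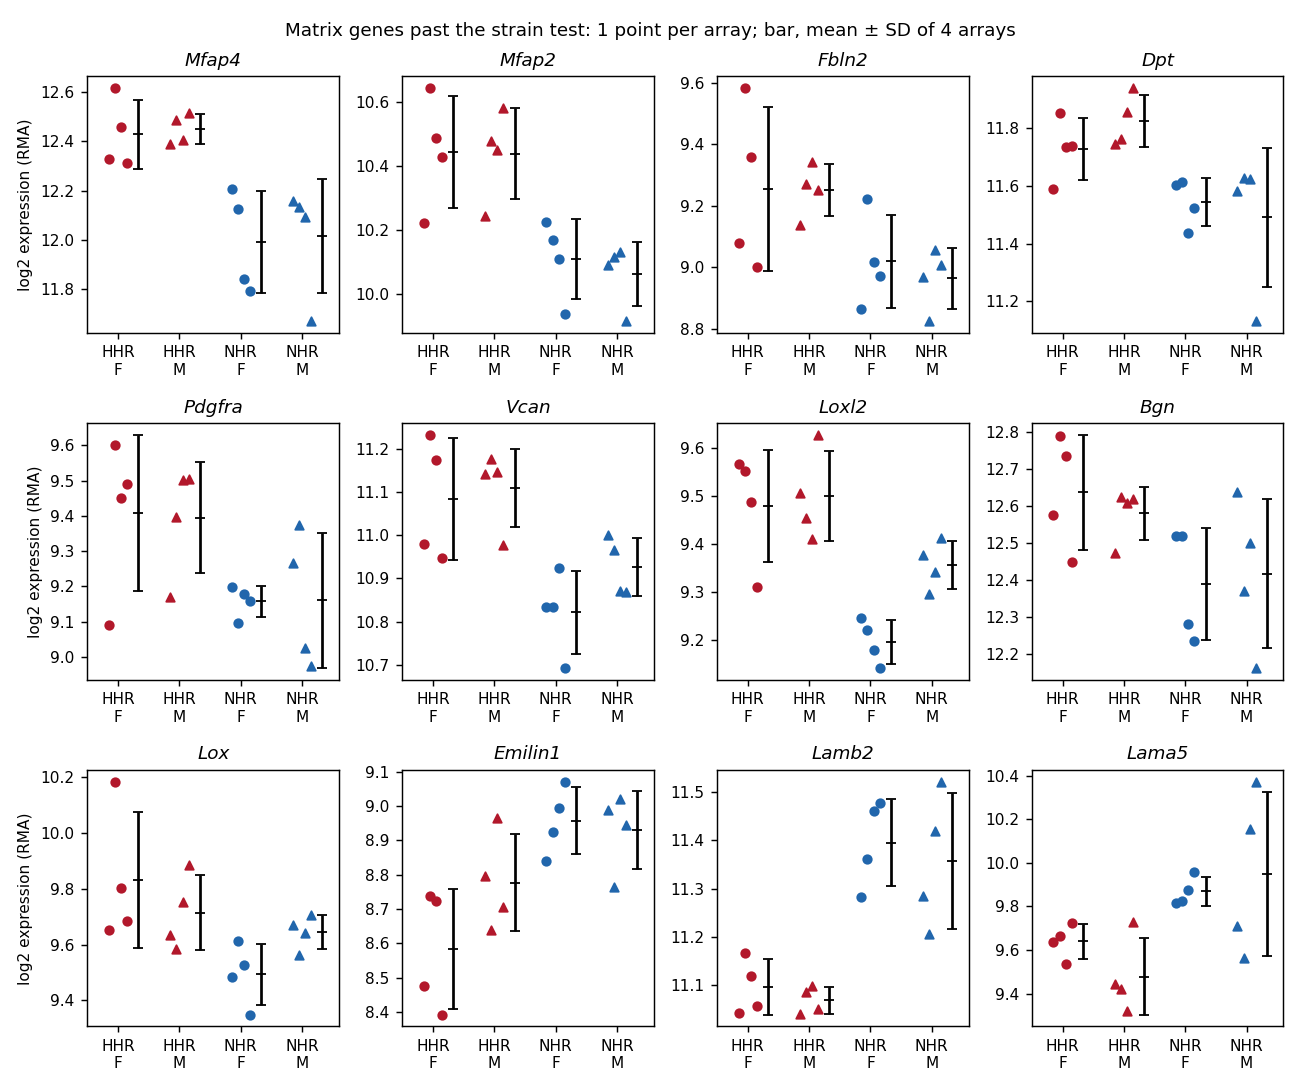
Log2 expression (vertical axis, own scale in each panel) of the 12 matrix genes past the strain test, 1 point per array for HHR (red) and NHR (blue), circles for females (F) and triangles for males (M), with the mean and SD of each group of 4 beside the points. The strains do not overlap in Mfap4 and Lamb2, and in Dpt the array NHR male 4 lies at 11.13, below its group.

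Of the 3 measured lysyl oxidases, copper enzymes that cross-link elastin and collagen, 2 rose. Loxl2, which acts mainly on collagens of basement membrane and scar, ran from 9.31 to 9.63 in HHR (median 9.50) and from 9.14 to 9.41 in NHR (median 9.27). Only 2 HHR arrays reached into the NHR range. The rise was 0.21 (SE 0.05, limma adjusted p = 0.00378). Lox, the family's founding member, was 9.58 to 10.18 in HHR (median 9.72) and 9.35 to 9.71 in NHR (median 9.59), and the groups overlapped in 4 HHR arrays. Its rise of 0.20 (SE 0.07, limma adjusted p = 0.0496) stood at the threshold, and its highest value belonged to HHR female 2. Without that array it was 0.15 (limma adjusted p = 0.0799). The call was lost with 12 of the 16 arrays when each was left out alone (all but HHR females 1 and 4, HHR male 2 and NHR female 2), with a limma adjusted p of up to 0.102, after quantile normalization (0.0827) or cyclic loess (0.0617), and without the 4 NHR arrays at the other end (0.0981). Without the 3 NHR arrays apart the Lox call was lost too (0.19, limma adjusted p = 0.158). Loxl1, which maintains elastic fibres, differed by 0.14 (SE 0.08, limma adjusted p = 0.232). Outside the list of 40, Loxl4 rose by 0.21 (SE 0.05, limma adjusted p = 0.00475) and kept its call in every alternative, while Loxl3 (0.06) did not pass.

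Of the 6 proteoglycans 2 rose and 0 fell, with 4 not past the test. Vcan, which encodes versican, a large hyaluronan-binding proteoglycan of the developing heart and its valves, ran from 10.95 to 11.23 in HHR (median 11.14) and from 10.69 to 11.00 in NHR (median 10.87). In 5 of 8 HHR arrays it lay above the NHR range. The rise was 0.22 (SE 0.05, limma adjusted p = 0.00633). Bgn, biglycan, a small leucine-rich proteoglycan that binds collagen and TGF-beta, ran from 12.45 to 12.79 in HHR (median 12.61) and from 12.16 to 12.64 in NHR (median 12.43). The groups overlapped in 6 HHR arrays. Its rise of 0.21 (SE 0.07, limma adjusted p = 0.0476) was less than 0.10 without the 3 NHR arrays apart, whose levels (12.28, 12.24 and 12.16) were the lowest of all (difference 0.0985, limma adjusted p = 0.351). It was also lost after quantile normalization (0.13, limma adjusted p = 0.208) and cyclic loess (0.15, limma adjusted p = 0.131), and with each of 11 single arrays left out (HHR females 1 to 3, HHR males 2 to 4, NHR females 3 and 4, NHR males 2 to 4; limma adjusted p up to 0.0984). Without the 4 NHR arrays at the other end the rise was 0.31 (limma adjusted p = 0.00721).

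The other small leucine-rich proteoglycans, which control the width of collagen fibrils, did not pass. Fmod, fibromodulin, differed by 0.26 (SE 0.10, limma adjusted p = 0.0693) and Dcn, decorin, by 0.15 (SE 0.06, limma adjusted p = 0.0760), both just outside the threshold. Fmod passed without HHR female 1 (0.31), HHR female 4 (0.30) or HHR male 1 (0.30), with limma adjusted p of 0.0317, 0.0376 and 0.0375, and also after cyclic loess (0.29, limma adjusted p = 0.0494). Dcn passed without HHR male 1 or NHR male 2 (0.18 each, limma adjusted p of 0.0359 and 0.0269), and without the 4 NHR arrays at the other end (0.23, limma adjusted p = 0.0166). Fmod was dim, at the 36.2 percentile of probe sets, and ran from 6.04 to 7.04 in HHR and from 6.12 to 6.47 in NHR. Lum, lumican, differed by -0.16 (limma adjusted p = 0.242) and Ogn, osteoglycin, by -0.06 (limma adjusted p = 0.528). Their intervals, -0.36 to 0.04 for Lum and -0.18 to 0.07 for Ogn, include values on both sides of 0.

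Of 4 measured adhesive and matricellular glycoproteins, 1 rose. Dpt, dermatopontin, a small protein that binds decorin and collagen, ran from 11.59 to 11.94 in HHR (median 11.75) and from 11.13 to 11.63 in NHR (median 11.59). It was above the NHR range in 7 of 8 HHR arrays and rose by 0.26 (SE 0.07, limma adjusted p = 0.0120). Without the 3 NHR arrays apart the rise was 0.17 (limma adjusted p = 0.0430), and NHR male 4 held the lowest level of all (11.13). Fn1, fibronectin, the adhesive protein bound by integrins, ran from 11.72 to 12.00 in HHR (median 11.89) and from 11.75 to 12.07 in NHR (median 11.89). Its difference was -0.02 with an interval of -0.13 to 0.09. Postn, periostin, a matricellular protein of activated fibroblasts and valves, ran from 12.19 to 12.51 (median 12.44) and from 12.24 to 12.54 (median 12.38), a difference of 0.02 with an interval of -0.11 to 0.14. For both the strains overlapped almost completely, and the intervals leave out a change as large as that of Mfap2. Sparc, osteonectin, which binds collagen, was the tightest of the group, with SDs of 0.025 in HHR and 0.042 in NHR, and differed by -0.07 (SE 0.03, limma adjusted p = 0.167). After cyclic loess normalization it passed (-0.13, limma adjusted p = 0.0121).

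Basement membrane genes among the 29 moved downward where they moved. Of the 9 listed 4 were measured, of which 2 fell and 0 rose. Outside the list of 40, Lama3 (-0.28), Lamb3 (-0.21, limma adjusted p = 0.0497) and Agrn (-0.16) also fell. Prelp, likewise of basement membranes, rose by 0.55, and Lama1 and Lamc3 did not pass. The Lamb3 call was lost in 16 alternatives, and the Agrn call without the 4 NHR arrays at the other end (limma adjusted p = 0.0869). Lamb2, the laminin beta 2 chain, found in heart muscle and vessel basement membranes, was 11.04, 11.17, 11.12 and 11.06 in the HHR females and 11.04, 11.08, 11.10 and 11.05 in the HHR males. In NHR it was 11.28, 11.36, 11.46 and 11.48 in the females and 11.28, 11.20, 11.42 and 11.52 in the males. The highest HHR array was thus below the lowest NHR array, and the HHR values spread far less (SD 0.045) than the NHR values (SD 0.11). The fall was 0.29 on the log2 scale, 1.23-fold (SE 0.05, limma adjusted p = 0.000514). It was the smallest adjusted p among the 29 genes. The 3 NHR arrays apart held the highest Lamb2 values (11.46, 11.48 and 11.52). Without them Lamb2 differed by -0.23, and without the 4 at the other end by -0.39 (limma adjusted p of 0.00480 and 4.0e-05). Mfap4 and Lamb2 were the 2 genes of the 29 (6.9%) whose strains did not overlap, against 4.15% of all probe sets (1.95% with HHR above and 2.2% with HHR below).

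Lama5, the laminin alpha 5 chain of mature vessel basement membrane, ran from 9.32 to 9.73 in HHR (median 9.59) and from 9.57 to 10.37 in NHR (median 9.85). It was below the NHR range in 4 HHR arrays. It fell by 0.35 (SE 0.09, limma adjusted p = 0.0140), with its 2 highest values in NHR male 3 (10.16) and NHR male 4 (10.37). Without the 3 NHR arrays apart it differed by -0.26 (limma adjusted p = 0.0734), and without the 4 at the other end by -0.53 (limma adjusted p = 0.000164). Lamc1, the gamma 1 chain shared by most laminins, differed by 0.07 (interval -0.03 to 0.17) and Nid2, nidogen 2, which links laminin to collagen IV, by -0.04 (interval -0.13 to 0.05). The chain common to most trimers thus gave no call, while the beta 2 and alpha 5 chains fell.

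Pdgfra, the platelet-derived growth factor receptor alpha that marks cardiac fibroblasts, rose by 0.24 (SE 0.08, limma adjusted p = 0.0317). It ran from 9.09 to 9.60 in HHR (median 9.47) and from 8.97 to 9.38 in NHR (median 9.17). In 6 of 8 HHR arrays it lay above the NHR range, while HHR female 1 (9.09) and HHR male 1 (9.17) lay inside it. The call was lost without HHR female 2, 3 or 4, HHR male 2, 3 or 4, NHR female 2, or NHR male 3 or 4 (0.21 to 0.24, limma adjusted p up to 0.0685), and without the 3 NHR arrays apart (0.22, limma adjusted p = 0.123). Mgp, matrix Gla protein, an inhibitor of calcification in vessels, differed by -0.19 (limma adjusted p = 0.197), by -0.01 without the 3 NHR arrays apart and by -0.38 without the 4 at the other end, where it passed (limma adjusted p = 0.00632). Of the 10 fibroblast markers listed, 5 of them among the 29 genes, 3 rose and 0 fell: Pdgfra, Col1a2 (a type I collagen chain, 0.19) and Tcf21 (a fibroblast and epicardial transcription factor, 0.37), the last pair named after their values were seen. Col1a1 and Col3a1 differed by 0.11 and -0.03 and did not pass. The summed level of the list lay between 14.72 and 14.96 in HHR and between 14.58 and 14.83 in NHR, so the strains overlapped.

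Markers of other cells moved too, where 9.64% of all probe sets passed as higher and 11% as lower. Of 8 heart muscle markers 5 fell and 0 rose, with summed levels of 16.15 to 16.24 in HHR and 16.23 to 16.35 in NHR. Without the 3 NHR arrays apart 3 of these 8 were lower, and Tnni3 (-0.11) and Myl2 (-0.10) no longer passed (limma adjusted p of 0.0731 and 0.125). Of 6 endothelial markers 4 fell and 1 rose, with sums of 13.04 to 13.22 and 13.17 to 13.32. Of 7 epicardial markers 3 rose and 0 fell (11.08 to 11.25 against 10.60 to 11.04, with no overlap), and of 7 atrial markers 3 rose and 1 fell (14.22 to 14.57 against 13.94 to 14.32). The epicardial genes that rose were Aldh1a2 (0.48), Gpm6a (0.31) and Tbx18 (0.24), and the atrial ones were Bmp10 (1.05), Kcnj3 (0.57) and Nppa (0.34), while Kcna5 fell (-0.34). These were named after their values were seen. The sums are of unlogged levels, so the brightest genes weigh most. In the epicardial list these were Gpm6a (9.52 on average) and Aldh1a2 (8.79), both among those that rose. The other epicardial markers averaged 5.79 to 8.29, so that sum does not describe the epicardial list as a whole. The markers listed first did not pass: Wt1, of the epicardium, differed by -0.13, and Sln and Myl7, of the atria, by 0.34 and 0.07. The mural list gave 2 higher and 1 lower of 7, the leukocyte list 1 and 1 of 8, the erythroid list 1 and 2 of 5, the cartilage or valve list 0 and 0 of 4, and the skeletal muscle list 0 and 2 of 4, its sums lying apart at 12.93 to 13.02 and 13.12 to 13.35. That last sum is nearly all Ckm, at 13.07 on average, against 6.25, 5.66 and 6.23 for Myog, Myod1 and Actn3. It thus does not describe the skeletal muscle list as a whole. Without the 3 NHR arrays apart the counts were 2 higher and 0 lower for the epicardial list, 3 and 0 for the atrial, 1 and 0 for the mural, 2 and 0 for the fibroblast and 0 and 1 for the skeletal muscle list, and as before for the other 4. No marker can be read as at 0, since the values carry no background level. What part cell makeup had in the matrix differences was not tested.

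The strain difference had the same sign in both sexes for 26 of the 29 genes and for all 12 that passed. Those 12 were called on the average over the sexes, which favours a shared sign. The share over all probe sets was not computed. Within females 7 genes passed (Mfap4, Mfap2, Loxl2, Vcan and Lox higher, Lamb2 and Emilin1 lower; 24.1%, against 12% of all probe sets, 5.78% higher and 6.21% lower). Within males 3 passed (Mfap4 and Mfap2 higher, Lamb2 lower; 10.3%, against 4.02%, 2.03% higher and 1.98% lower). Mfap4 differed by 0.44 in females and 0.44 in males (SE 0.11 in each), and Lamb2 by -0.30 and -0.29 (SE 0.07 in each). The test of the difference between the sexes' effects called 0 of 29 genes with limma and 0 of all probe sets (0%), and 0 of the 29 had an unadjusted p under 0.05. Its intervals were wide: for Lox, 0.34 in females and 0.07 in males, the interval of the difference ran from -0.57 to 0.03, and for Mfap4 from -0.33 to 0.33. Males and females averaged over the strains differed in 0 of 29 genes (0.011% of all probe sets passed with limma, 0.00366% higher and 0.00731% lower in males), and 1, Fmod, had an unadjusted p under 0.05 (male minus female -0.22, limma adjusted p = 0.764).

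**Figure D3:**
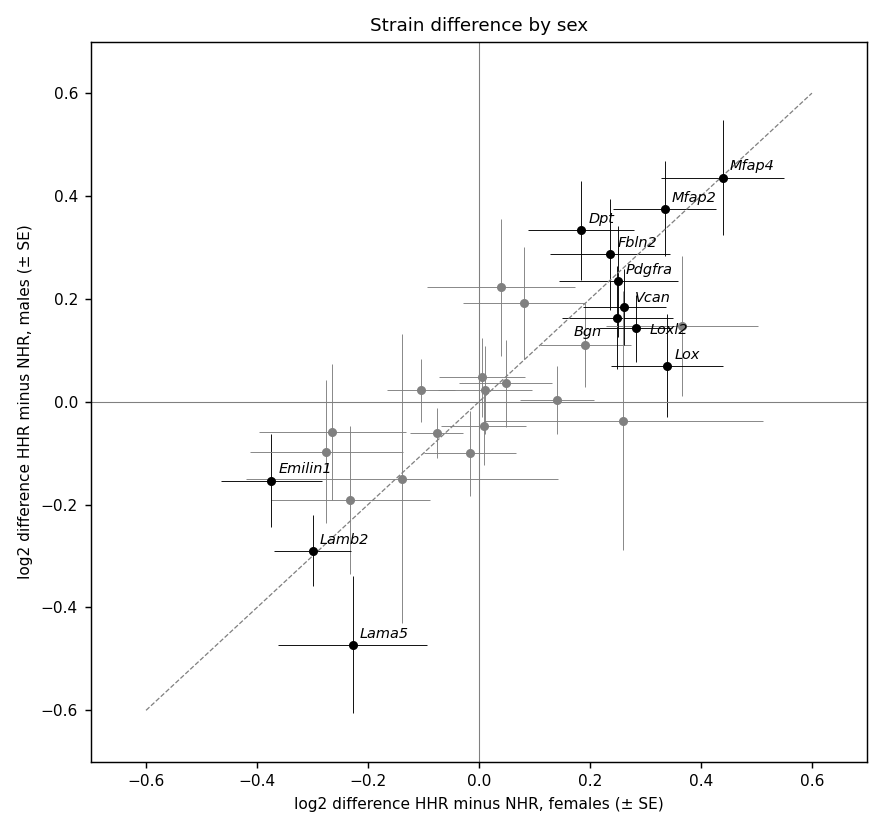
Log2 difference of HHR minus NHR in females (horizontal axis) and in males (vertical axis) for the 29 genes, with SE bars; named black points are the 12 genes past the test averaged over the sexes, and the dashed line marks equal differences. Mfap4, Mfap2 and Lamb2 lie near the line, Lox (0.34 and 0.07) and Lama5 (-0.23 and -0.47) away from it.

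The counts within a sex moved with single animals. In females 3 genes passed without HHR female 2 or without NHR female 4, and 4 without HHR female 3 or without NHR female 3. In males 0 passed without HHR male 2, NHR male 3 or NHR male 4, 1 without HHR male 1, 3 or 4, and 5 without NHR male 2.

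Some HHR arrays were at the edge of their group in most matrix genes. HHR female 2 had the highest level of the 4 HHR females in 24 of 29 genes (24% of all probe sets), and HHR male 4 the highest of the HHR males in 21 (26.5% of all). HHR male 1 was the lowest HHR male in 23 genes (22.8% of all). In NHR no array led as often: NHR female 2, NHR male 3 and NHR male 4 were each highest in 10 genes (20.1%, 23.4% and 31.1% of all probe sets), and NHR male 2 was lowest in 16 (31.8% of all). The median SD within groups was 0.15 for the 29 genes and 0.12 for all probe sets.

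The widest spread belonged to elastin and fibulin 5, with SDs within groups of 0.47 and 0.42, above 99.7% and 99.5% of probe sets. Eln was 9.45, 10.90, 10.08 and 9.33 in the HHR females, 9.53, 9.69, 9.83 and 10.18 in the HHR males, 9.72, 10.46, 10.19 and 9.96 in the NHR females and 10.07, 9.30, 10.12 and 10.32 in the NHR males. Fbln5 was 9.03, 10.44, 9.88 and 8.96, then 8.86, 9.32, 9.29 and 9.68, then 9.11, 9.57, 9.43 and 9.16, then 9.33, 9.05, 9.35 and 9.56 in the same order. Both genes were highest in the same animal of every group (HHR female 2, HHR male 4, NHR female 2 and NHR male 4), and both were lowest in HHR female 4, HHR male 1, NHR female 1 and NHR male 2. Between HHR females 2 and 4 elastin differed by more than any strain difference of the 29 genes. Without HHR female 2 the strain difference of Eln was -0.30 and that of Fbln5 -0.03, neither past the test.

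**Figure D4:**
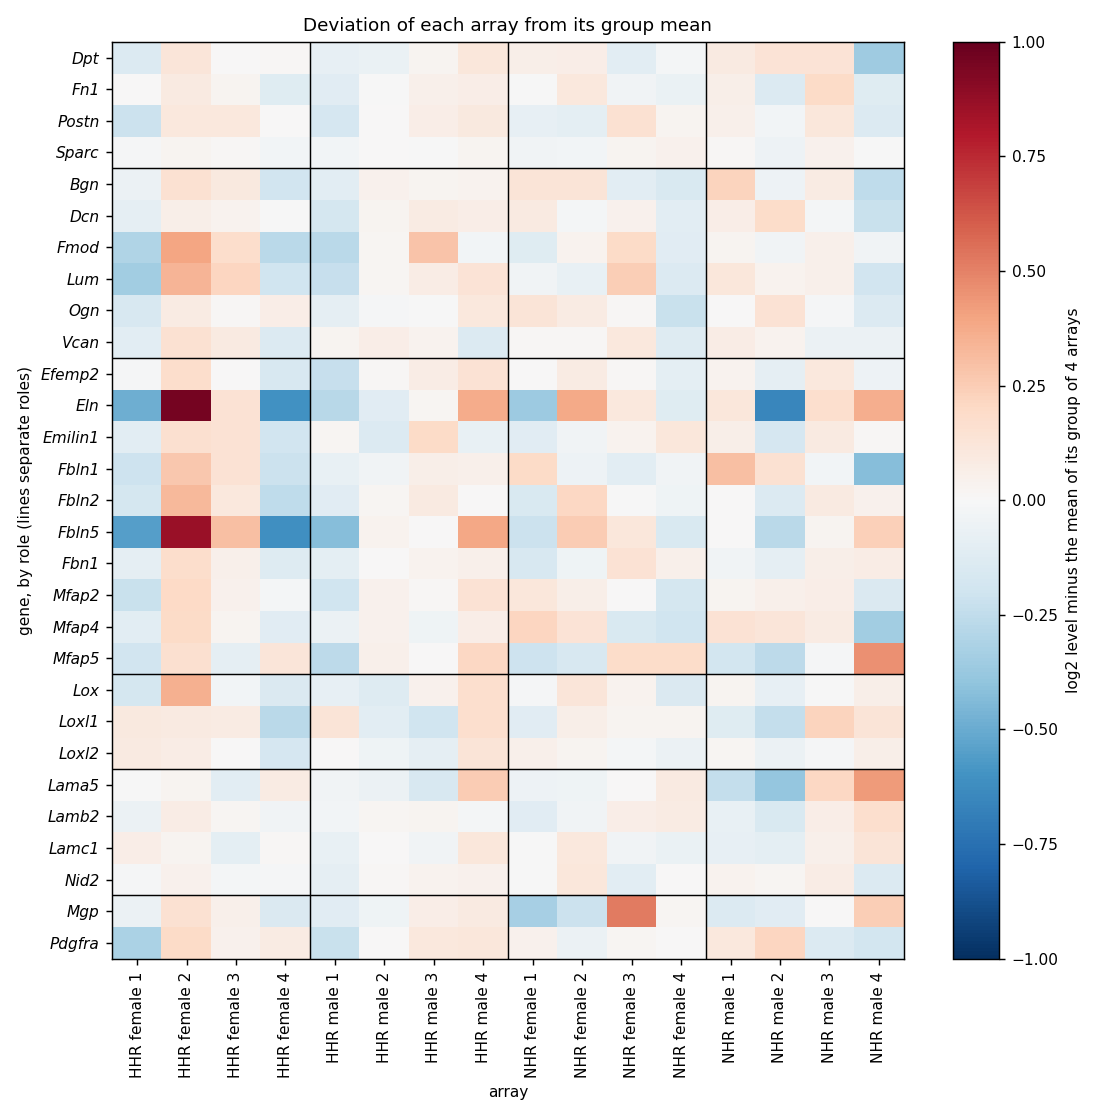
Level of each matrix gene (rows, by role) on each array (columns) minus the mean of its group of 4, on the log2 scale, red above and blue below the mean. Eln and Fbln5 carry the deepest colours, with HHR female 2 above and HHR female 4 below their group, and most rows are red in HHR female 2 and HHR male 4.

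Other genes of the matrix, listed apart from the 40, gave a mixed picture. Of 53 measured matrix glycoproteins and proteoglycans 11 rose and 7 fell, with a median of 0.02. Over all probe sets 9.64% passed as higher and 11% as lower. Smoc2, a calcium-binding relative of Sparc, rose by 0.56 (SE 0.07), Prelp, a leucine-rich proteoglycan of basement membranes, by 0.55 (SE 0.08) and Smoc1 by 0.34 (SE 0.06), with limma adjusted p of 5.1e-05, 0.000134 and 0.00124. All 8 HHR arrays lay above the NHR arrays for Smoc2 and Prelp. Crispld2, a secreted protein of mesenchyme, fell by 0.60 (SE 0.10), Tgfbi, an adhesive protein induced by TGF-beta, by 0.36 (SE 0.06) and the laminin alpha 3 chain Lama3 by 0.28 (SE 0.05), with limma adjusted p of 0.000503, 0.000653 and 0.000498. Without the 3 NHR arrays apart 6 of the 53 were higher and 7 lower, and without the 4 at the other end 9 and 7.

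Of 26 receptors that bind matrix, 2 rose and 4 fell (3 and 3 after centring each array on its median, 2 and 5 without the 3 NHR arrays apart, 5 and 3 without the 4 at the other end). The share called in the main test was near the 20.7% of all probe sets that passed, 9.64% higher and 11% lower. The laminin receptor subunits Itga7, of muscle, and Itga6 were lower, by -0.92 (SE 0.06, limma adjusted p = 1.4e-08) and -0.21 (SE 0.04, limma adjusted p = 0.00238), as was Itgb5, a chain that binds vitronectin (-0.19, limma adjusted p = 0.00258). Itga7 thus differed in the same direction as the laminin chains Lamb2 and Lama5, and by more. The laminin chain Lamc1 (0.07) and the integrin chain Itgb1 (0.10, limma adjusted p = 0.121) did not pass. Whether these differences are linked was not tested. Gpc3, a heparan sulfate proteoglycan of the cell surface, rose by 0.32 (SE 0.06, limma adjusted p = 0.00118), and Sdc3, a syndecan, by 0.21 (SE 0.05, limma adjusted p = 0.0132). The Sdc3 call was lost without the 3 NHR arrays apart (0.13, limma adjusted p = 0.105).

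Of 31 enzymes that make or modify matrix 8 rose and 3 fell, with a median of 0.07, beside 9.64% higher and 11% lower of all probe sets. P4ha3, a collagen prolyl hydroxylase subunit, rose by 0.71 (SE 0.13, limma adjusted p = 0.00126), and by 0.44 without the 3 NHR arrays apart (limma adjusted p = 0.00339). Has2, the hyaluronan synthase of the developing heart, whose product versican binds, rose by 0.42 (SE 0.08, limma adjusted p = 0.00195), and Csgalnact1, which starts chondroitin sulfate chains like those versican carries, by 0.30 (SE 0.05, limma adjusted p = 0.000927). Sulf1, which trims sulfate from heparan sulfate, fell by 0.53 (SE 0.08, limma adjusted p = 0.000236), Serpinh1, the collagen chaperone, by 0.31 (SE 0.06, limma adjusted p = 0.00149) and Bmp1, a protease that matures collagen and Lox, by 0.15 (SE 0.04, limma adjusted p = 0.0220). Without the 3 NHR arrays apart 5 enzymes were higher and 3 lower. Without the 4 at the other end 10 were higher and 3 lower, and Bmp1 no longer passed (limma adjusted p = 0.0781).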

How the data were processed

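The deposited table holds log2 expression values produced by the authors through RMA. That step and the authors' use of limma are known per the submitters' processing notes, with versions, filters and build not given in the sources used here. It covers 27342 probe sets on 16 arrays. The platform's annotation gave 15097 probe sets 1 symbol, 323 several and 11922 none.

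Group means were fitted to all 16 arrays with limma 3.58.1 in R 4.3.3, moderated by eBayes, and p-values were adjusted by Benjamini and Hochberg's method across the whole table (threshold 0.05). Contrasts were strain averaged over the sexes, strain within each sex, sex, and their interaction. SE is limma's moderated error and intervals are 95%. The script was tested on simulated data. Arrays carry no counts, so their number limits the precision. The p-values set each mean difference against the spread between these animals within their groups. Spread between litters cannot be told apart from it, since litters are not given.

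The matrix genes, the other gene lists and the rule for named genes were chosen with earlier results of these data known. That rule gave array values for genes past the strain test and for Fn1, Postn, Eln and Pdgfra, and named up to 3 genes per direction of each further matrix list by smallest adjusted p. Outside that rule, Aspn, Omd, Epyc, Kera, Lama1, Lamb3, Lamc3, Agrn, Loxl3, Loxl4 and Itgb1 were named after their values were seen. The RefSeq tables of GRCr8 supplied promoter sequences only. Alternatives were other normalizations, filters, moderation, array weights, a stricter threshold, a replicate block, fewer covariates and leaving out arrays. Leaving out the 3 NHR arrays apart, or the 4 at the other end, was chosen after seeing the data.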

Additional observations from a re-analysis of the deposited data

Results flagged for a closer look

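In 116 groups of 4 arrays (29 genes in 4 groups), 5 held an array whose gap to its nearest neighbour exceeded Dixon's 95% critical share of the group's range, where chance gives about 1 in 20. Dpt in NHR male 4 was 11.13, with the next array at 11.58. Mfap4 in the same array was 11.67, with the next at 12.09. Bgn in HHR male 1 was 12.47, with the next at 12.61. Loxl1 was lowest in HHR female 4 (10.06, next 10.41) and in NHR female 1 (10.14, next 10.28). All 5 were the lowest array of their group.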

How the results depend on the processing

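None of the 12 strain differences past the test changed sign in any alternative, and 6 (Mfap4, Mfap2, Vcan, Loxl2, Dpt and Lamb2) kept an adjusted p under 0.05 in every refit with limma at that threshold. Lox lost its call in 19 of 28 alternatives, Bgn in 15 and Pdgfra in 10, among them single arrays left out (limma adjusted p up to 0.102, 0.0984 and 0.0685). Lox, Bgn, Pdgfra, Fbln2, Lama5 and Emilin1 lost theirs without the 3 NHR arrays apart, and Lox and Fbln2 also without the 4 at the other end. Leaving out single arrays gave 6 to 10 genes higher and 3 lower, 3 to 9 called in females, 0 to 5 in males, and 0 for sex and for the interaction. An adjusted p under 0.01 left 4 genes higher, 1 called in females and 0 in males. Leaving out the 3 NHR arrays apart gave 5 higher and 1 lower, and leaving out the 4 at the other end 9 higher and 5 lower (Mfap5 and Mgp passed). Quantile normalization left 3 called in females. In males 5 were called with the filter on dim probe sets or with single-symbol probe sets only, where fewer probe sets are tested, and 1 from male arrays alone. With the replicate number as a block 9 were higher and 4 lower: Fmod and Mfap5 passed and Lox did not. The numbers were not taken to pair animals, because their meaning is not given. Deviations of same-numbered arrays correlated from -0.11 to 0.37 (median 0.09), over 0.1 in 11 of 24 pairs. In other groups, where each array met arrays of all 4 numbers, 9 of 16 arrays correlated best with an array of their own number. The count to be reached if the numbers meant nothing was not computed. These values do not show that the numbers are without meaning, and what they stand for was not tested. Averaging a gene's probe sets changed nothing, since each had 1. Where no cause is named, the cause was not tested.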
